A study of Mus musculus with 2 samples.

Results

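Pax2, Pax8, Lhx1, Osr2 and Mecom are 5 genes for transcription factors of the early nephron, the stage at which kidney mesenchyme becomes epithelium. They were followed through the open chromatin of sorted Wnt4-lineage cells. A peak was taken as belonging to a gene when its summit lay inside the gene, or within 100 kb of it with that gene's end the nearest among the 21883 protein-coding genes on chromosomes. By this rule the 5 genes held 73 of the 61210 peaks called in Brg1 cKO cells and 89 of the 77529 called in control cells.

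The cKO library came from kidneys of genotype Brg1cKO/cKO, which the design text calls deficient in Brg1, the ATPase of the BAF complex that moves nucleosomes along DNA. The other library came from kidneys labelled WT control. ATAC-seq marks open chromatin by letting a transposase insert adapters there, and both libraries started from 50000 tdTomato-positive cells sorted at E18.5, late in gestation, and each genotype had 1 library. No label or design text used here names the line or promoter that drives the deletion or the tdTomato label. The control's cell type label reads only control, so that it too holds Wnt4-lineage cells rests on its title and the design text. Since each genotype had a single library, spread between replicates could not be measured and differences were not tested. Intervals are exact 95% binomial intervals and cover counting error only. Read counts were not part of the files used, so the depth is unknown.

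Pax2 and Pax8 encode closely related paired-box factors that act together in forming the nephric lineage and the nephron. Lhx1 encodes a LIM-homeodomain factor that is needed once the renal vesicle forms and is patterned. Osr2 encodes a zinc finger factor related to Osr1 and is active in nephron and mesenchyme of the developing kidney. Mecom, also called Evi1 or Prdm3, encodes a zinc finger factor with a long form that carries a PR domain and a shorter form from an inner start, and it is used in the distal nephron, in endothelium and in blood stem cells. Pax2, Pax8 and Lhx1 are also active in the ureteric bud and its collecting ducts. In a mixed sort, fewer cells that use a gene and less open chromatin per cell cannot be told apart.

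Annotated starts of these genes were open in both libraries, and the sequences of 5 of them are shown, each wholly within a peak of both libraries. They are RefSeq windows of GRCm38.p6, the assembly of mm10, from 250 bases before to 50 bases after a start. The table held 7 windows for 4 of the 5 genes, and all 7 lay wholly within peaks of both libraries. Among all 21262 windows of protein-coding genes, 63.7% met a peak of both libraries, a looser measure than lying wholly within one. The Pax2 window (chr19:44756656-44756955, plus strand) belongs to the inner start nearest to the summit of the gene's widest peak. The others are Pax8 (chr2:24475550-24475849, minus strand), Lhx1 (chr11:84525485-84525784, minus strand), the outer start of Mecom (chr3:30509710-30510009, minus strand) and its inner start (chr3:30013155-30013454, minus strand). Capitals mark the letters of 5 motifs searched on both strands: the TATA box TATAAA, the CCAAT box CCAAT, the GC box GGGCGG, the TCF/LEF core CTTTGAT and the first letters of a cyclic AMP response element, TGACG. The motifs were chosen after the sequences had been seen, and no 2 motifs overlap in these windows.
Pax2: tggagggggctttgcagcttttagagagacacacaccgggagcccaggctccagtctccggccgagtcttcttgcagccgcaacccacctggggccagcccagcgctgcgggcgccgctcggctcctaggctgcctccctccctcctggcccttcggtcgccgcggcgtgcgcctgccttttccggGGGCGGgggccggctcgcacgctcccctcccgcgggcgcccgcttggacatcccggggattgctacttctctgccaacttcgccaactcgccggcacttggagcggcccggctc
Pax8: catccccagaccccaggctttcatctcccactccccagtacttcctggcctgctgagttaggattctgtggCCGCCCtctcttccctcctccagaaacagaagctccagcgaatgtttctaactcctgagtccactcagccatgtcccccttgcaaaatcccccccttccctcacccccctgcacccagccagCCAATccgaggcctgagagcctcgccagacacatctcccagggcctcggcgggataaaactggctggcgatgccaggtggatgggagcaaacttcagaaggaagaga
Lhx1: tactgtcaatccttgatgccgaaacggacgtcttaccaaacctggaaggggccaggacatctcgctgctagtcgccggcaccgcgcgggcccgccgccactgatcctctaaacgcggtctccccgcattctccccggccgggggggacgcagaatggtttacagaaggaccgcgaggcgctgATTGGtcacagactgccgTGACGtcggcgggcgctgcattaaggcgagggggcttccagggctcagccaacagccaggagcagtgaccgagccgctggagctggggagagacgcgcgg
Mecom outer start: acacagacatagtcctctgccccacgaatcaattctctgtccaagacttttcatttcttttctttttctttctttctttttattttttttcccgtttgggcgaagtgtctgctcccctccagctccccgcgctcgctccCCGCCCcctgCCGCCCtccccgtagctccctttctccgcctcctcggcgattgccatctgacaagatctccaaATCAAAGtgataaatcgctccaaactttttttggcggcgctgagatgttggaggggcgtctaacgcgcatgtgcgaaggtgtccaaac
Mecom inner start: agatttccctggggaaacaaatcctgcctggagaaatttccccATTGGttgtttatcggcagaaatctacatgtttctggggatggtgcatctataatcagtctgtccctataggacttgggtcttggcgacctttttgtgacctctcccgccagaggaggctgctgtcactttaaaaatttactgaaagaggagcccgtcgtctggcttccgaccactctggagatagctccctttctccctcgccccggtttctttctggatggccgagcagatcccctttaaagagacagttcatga

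GGGCGG or its complement was found in the windows of Pax2, Pax8 and the outer Mecom start, and in 46.2% of all windows. CCAAT was found in those of Pax8, Lhx1 and the inner Mecom start, and in 38.2% of all windows. CTTTGAT was found 38 bases before the outer Mecom start and in 3.22% of all windows. TGACG was found 50 bases before the Lhx1 start and in 23.6% of all windows. TATAAA, present in 12.6% of all windows, was in none of the 5. The summit over the inner Mecom start lay 1 base before the start in the cKO library and 3 bases before it in the control. Over the Pax8 start it lay 66 bases before the start in both libraries. At Lhx1 it lay 48 bases before the start in the cKO library and 20 bases after it in the control. The summits therefore sat on or near the annotated starts of Pax8, Lhx1 and the inner Mecom start. That over the outer Mecom start lay 956 bases into the gene in the cKO library and 1184 in the control. For the Pax2 start shown, the summit lay 354 bases before it in the cKO library and 347 in the control, outside the printed window.

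The first comparison asked how many peaks of these genes were called in both libraries. Of the 73 cKO peaks, 70 overlapped a control peak (95.9%, 88.5 to 99.1%). Of the 89 control peaks, 68 were matched in the cKO list (76.4%, 66.2 to 84.8%), which left 21 control-only peaks. Over the whole lists 5.92% of cKO peaks and 25.9% of control peaks had no counterpart, so the members' 3 of 73 and 21 of 89 lay close to the background. Peaks of the same strength, in 10 classes by the caller's p within each list, overlapped the other library in 91.6% of cases for the members' cKO peaks and 69.8% for their control peaks.

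The 5 genes split into those that had control-only peaks and those that had none. Pax2 had 17 peaks in the cKO library, all matched, and 26 in the control, 17 of them matched. Pax8 had 11 in the cKO library, all matched, and 16 in the control, 11 of them matched. Mecom had 29 in the cKO library, 27 of them matched, and 34 in the control, 27 of them matched. Lhx1 had 10 in the cKO library, 9 of them matched, and 8 in the control, all matched. Osr2 had 6 in the cKO library and 5 in the control, all matched. Having every control peak matched, as at Lhx1 and Osr2, was the case for 13.3% of the 5136 genes with at least 5 control peaks. Lhx1 and Osr2 had the fewest control peaks of the 5 genes. The 13.3% pools genes with any number from 5 up, so it is no background for genes with so few peaks. Having every cKO peak matched, as at Pax2, Pax8 and Osr2, was the case for 65.0% of genes with at least 5 cKO peaks. The plot of the 5 loci shows where the unmatched peaks lay.

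**Figure D1:**
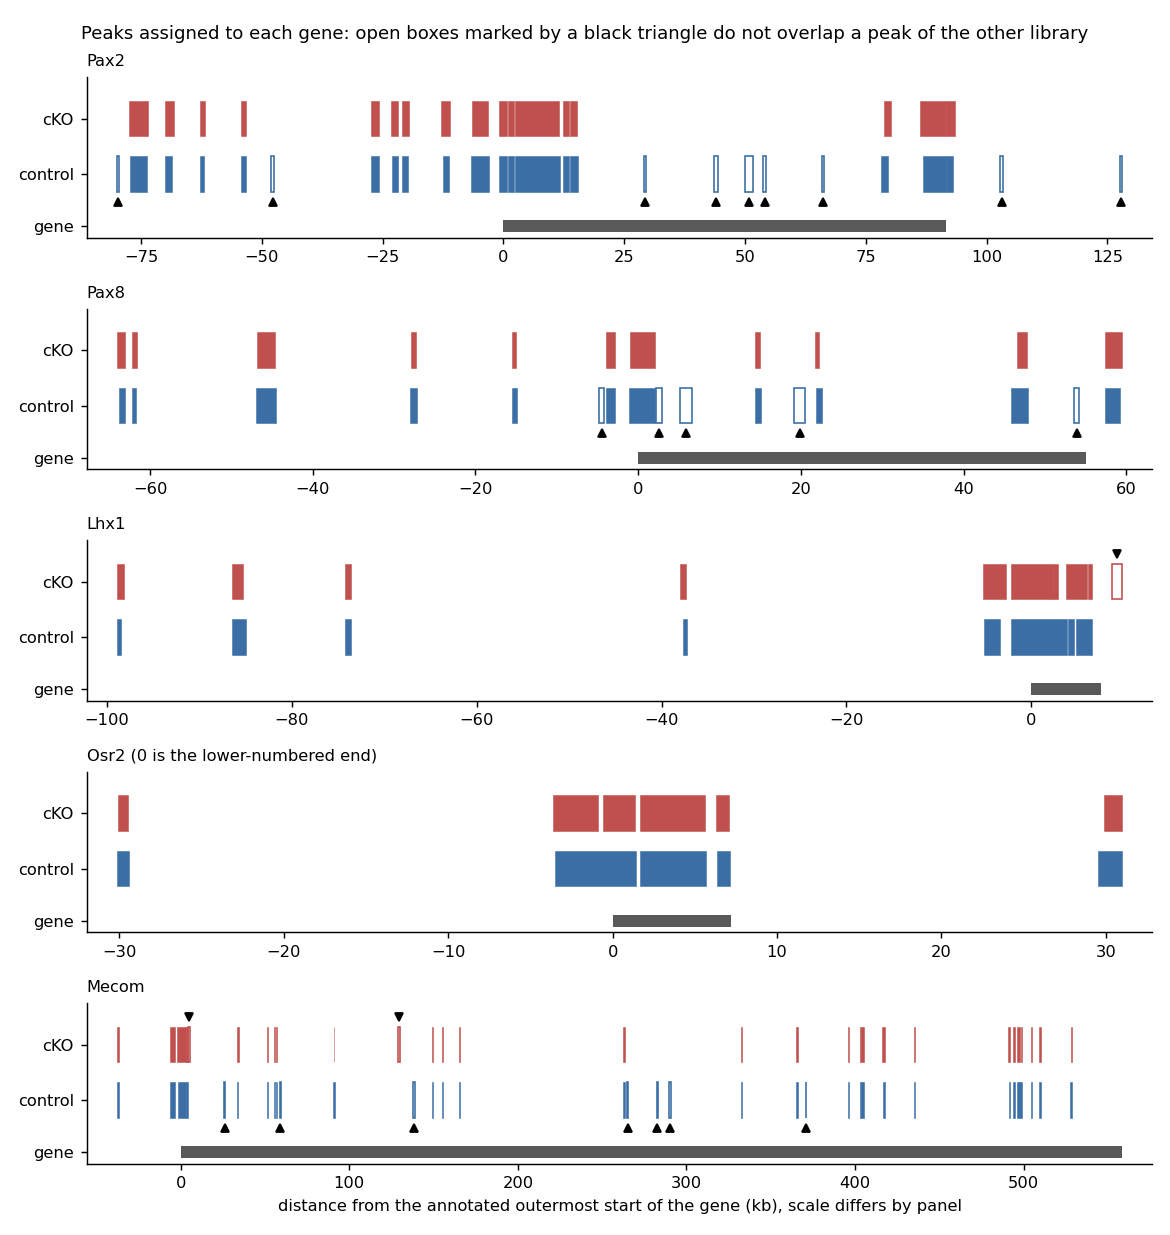
Map of the peaks of each gene (upper row, cKO; middle row, control; grey bar, the gene), with distance in kb from the outermost annotated start, or for Osr2 from its lower-numbered end. Open boxes with a black triangle are peaks without a counterpart: 9 in the control library at Pax2, 5 at Pax8 and 7 at Mecom, and in the cKO library 1 at Lhx1 and 2 at Mecom.

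Pax2 (chromosome 19, 44746601 to 44838269) had the most covered bases of the 5 genes, 41.1 kb in the cKO library and 44.8 kb in the control. That placed it at rank 29 of all protein-coding genes by covered bases in the cKO library and at rank 52 in the control. Its widest peak spanned both inner starts of the gene and measured 9179 bp in cKO cells (44748951 to 44758129) and 9432 bp in control cells (44748914 to 44758345). The control peak was the 27th widest of that list, and the cKO peak the 29th widest of its own. A peak over the outermost start was 1593 bp wide in cKO cells and 1583 bp in control cells. A further broad peak reached the far end of the gene and measured 5358 bp in cKO cells and 4673 bp in control cells. A peak 74.3 kb before the gene measured 3907 bp in cKO cells and 3623 bp in control cells. Another, 4.89 kb before the gene, measured 3403 bp in cKO cells and 3642 bp in control cells.

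The 9 control-only peaks of Pax2 all stood in the weaker 50% of their list. All 5 inside the gene stood next to each other, from 44775594 to 44812958, a run over 37.4 kb. They were 499 to 1604 bp wide and covered 3.82 kb together, with -log10 p of 4.12 to 4.62. In the cKO library the longest stretch without a peak inside Pax2 measured 63.5 kb (44761784 to 44825267) and took in this run, against 14.1 kb in the control. Runs of 5 or more neighbouring control-only peaks numbered 182 in the whole list and held 5.14% of its control-only peaks. The most significant control-only peaks of Pax2 lay outside the gene, 11.5 kb past its end (44849388 to 44849994, -log10 p 5.27) and 36.1 kb past it (44874153 to 44874675, 4.78), with that at 47.8 kb before the gene next (44698574 to 44699091, 4.68). None of the run's 5 peaks was among the 61210 most significant control peaks, the number in the cKO list. Within that shortened list 88.9% of Pax2's control peaks were matched, in place of 65.4%. The cut drops the weakest control peaks, where the fewest were matched, so it favours such a rise beforehand.

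Matched peaks of Pax2 were mostly wider in the cKO library, 12 of 17, with a median ratio of cKO to control width of 1.05 (0.86 to 1.34). Over the library pair 41.2% of 54820 peaks matched one to one were wider in cKO cells, and the median ratio was 0.98. The 17 peaks covered 41.1 kb in cKO cells and 38.9 kb in control cells. The 9 control-only peaks added 5.89 kb to the control, 13.1% of its covered bases there. In all, bases covered at Pax2 stood at 0.92 of the control, against a median of 0.81 over genes with at least 5 control peaks. With the shortened control list, which can only raise the ratio or leave it, the value was 1.06, on the other side of 1.

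Pax8 (chromosome 2, 24420551 to 24475599) had fewer bases in the cKO library than any other member relative to control, 13.5 kb against 19.9 kb, a ratio of 0.68. As assigned here it did not pass the 1.5-fold limit, but it did at 0.64 with assignment within 50 kb and at 0.60 with any annotated gene as competitor. With the assignment used here, that limit was passed by 21.5% of genes towards fewer bases in cKO cells and by 0.136% towards more. These shares were not computed under the other settings. Of the genes with at least 5 control peaks, 23.5% had a lower ratio than Pax8. The peak over its start was alike in the libraries, 3087 bp wide in cKO cells (24473551 to 24476637) and 3140 bp in control cells (24473543 to 24476682). The peak 45.9 kb before the gene measured 2125 bp in cKO cells and 2488 bp in control cells. The peak inside the gene toward its far end measured 1289 bp in cKO cells and 2116 bp in control cells, a ratio of 0.61 and the only one-to-one pair of Pax8 past 1.5 fold.

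Most of the difference at Pax8 lay inside the gene. There the cKO library had 3 peaks covering 2.50 kb and the control 7 covering 7.93 kb, whereas before the gene, the start peak included, it had 7 covering 8.91 kb against 8 covering 10.0 kb in the control. A single control-only peak stood out from the other members' by its strength (24455037 to 24456463, 1427 bp, 19.9 kb from the start). Its -log10 p of 6.74 was the highest of the 21 control-only peaks, and 92.5% of control peaks in its strength class were matched. The neighbours 24472607 to 24473430 (-log10 p 5.54) and 24469032 to 24470400 (5.04), just inside the start, formed a run of 2 without a cKO peak. The others lay 4.57 kb before the gene, with 675 bp and a -log10 p of 4.62, and 1.12 kb from its far end, with 726 bp and 4.53. The 3 strongest were among the 61210 most significant control peaks. In that shortened list 76.9% of Pax8's control peaks were matched, against 68.8% in the full list, and the ratio of bases was 0.75. The cut favoured a rise in both values, as at Pax2. With peaks closer than 500 bp joined, Pax8 had 14 control peaks with 78.6% matched, in place of 16 with 68.8%. The control-only peaks at 24472607 to 24473430 and 4.57 kb before the gene each joined a matched control peak. At Pax2 the same setting gave 57.1% in place of 65.4%, and at Mecom 76.7% in place of 79.4%. Runs as short as 2 peaks were not counted over the whole list.

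**Figure D2:**
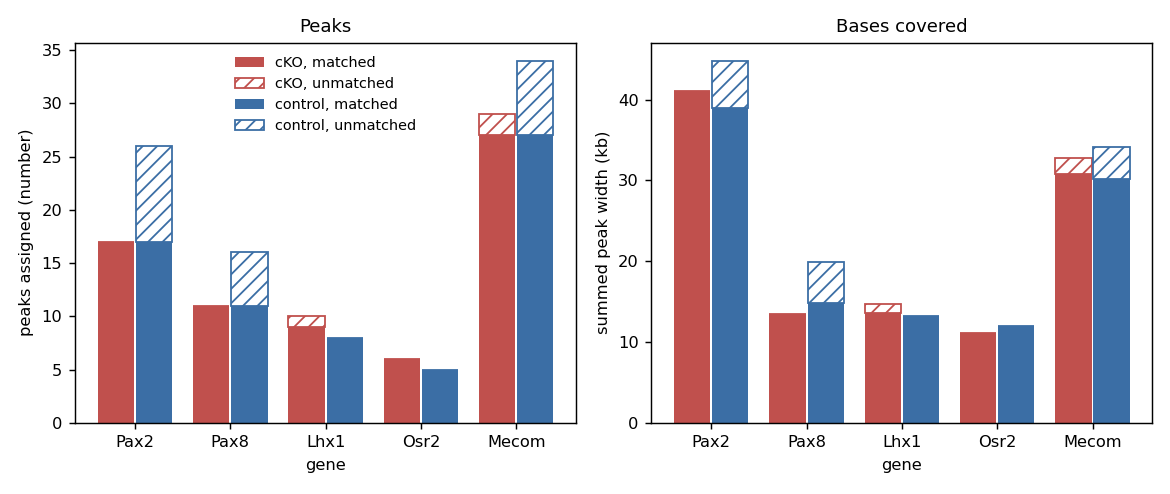
Peaks assigned to each gene (left, number) and their summed width (right, kb) in the cKO library (red) and the control (blue), with hatched parts for peaks without a counterpart. Unmatched control peaks hold 5.89 kb at Pax2, 5.02 kb at Pax8 and 4.01 kb at Mecom, and none at Lhx1 or Osr2.

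Lhx1 (chromosome 11, 84517975 to 84525534) was the only member with more peaks unmatched in the cKO library than in the control, 1 against 0, and the only one with more covered bases there, 14.7 kb against 13.2 kb. Its ratio of 1.11 was above 1, as for 13.7% of genes with at least 5 control peaks. In the more significant 50% of each list, which left 2 cKO and 4 control peaks, the ratio was 0.58. Peaks covered most of the gene's length in both libraries, but they were divided differently. A control peak of 6077 bp over the start (84521648 to 84527724), the 157th widest of its list, met cKO peaks of 2304, 532 and 4533 bp, which were 790 and 103 bp apart. A further control peak, of 1751 bp (84518988 to 84520738), met 2 cKO peaks. The cKO peak of 2304 bp (84519501 to 84521804) in turn met 3 control peaks. Over the whole lists 1.29% of control peaks met several cKO peaks and 1.45% of cKO peaks met several control peaks. The gene Lhx1os, a long noncoding RNA gene, begins within the peak over the Lhx1 start, so that peak cannot be given to either gene alone.

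Farther out, Lhx1 had the same 5 peaks in both libraries, from 3.77 kb to 98.7 kb before the gene. The nearest of them measured 2479 bp in cKO cells and 1680 bp in control cells. Those at 37.7 and 98.7 kb were just past 1.5 fold wider in cKO cells, with 690 bp in cKO cells against 459 bp in control cells and 761 against 507 bp. Among all one-to-one pairs 3.90% were wider by 1.5 fold or more in cKO cells. The pair at 86.1 kb measured 1184 bp in cKO cells and 1458 bp in control cells, and that at 73.9 kb 590 bp in cKO cells and 623 bp in control cells. The cKO-only peak (84515680 to 84516797, 1118 bp) lay 2.14 kb past the far end of Lhx1 with a -log10 p of 4.21, within the weakest of 10 classes. The 100 kb limit fell between peaks at 98.7 and 117 kb in the cKO library and between peaks at 98.8 and 108 kb in the control. Past it, 5 cKO peaks (all matched) and 6 control peaks (5 matched) had Lhx1 as their nearest gene.

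Osr2 (chromosome 15, 35296098 to 35303305) had every peak matched in both directions. A control peak of 4949 bp across its lower-numbered end (35292587 to 35297535) met cKO peaks of 2722 and 1963 bp that stood 331 bp apart. Osr2 was thus counted with 6 cKO peaks and 5 control peaks. The peak within the gene measured 3936 bp in cKO cells and 3989 bp in control cells, and that at the other end 793 bp in cKO cells and 785 bp in control cells. The outlying peaks were narrower in the cKO library, 599 against 751 bp at 29.8 to 30.0 kb and 1088 against 1493 bp on the other side, 23.5 kb out in the cKO library. In all, Osr2 covered 11.1 kb in cKO cells and 11.97 kb in control cells, a ratio of 0.93, and 91.7% of its control bases lay under a cKO peak.

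Mecom (chromosome 3, 29951296 to 30509759) is the longest member, and 12 of its cKO peaks and 16 of its control peaks lay inside it more than 100 kb from either end. It covered 32.7 kb in cKO cells and 34.2 kb in control cells, a ratio of 0.96. With the shortened control list, which can only raise the ratio or leave it, the value was 1.32. The outer start lay in a peak of 5062 bp in cKO cells (30506617 to 30511678) and 4815 bp in control cells (30506621 to 30511435). Upstream of it a peak measured 3199 bp in cKO cells and 2986 bp in control cells, with its summit at the same base. The inner start lay in a peak of 1859 bp in cKO cells and 1580 bp in control cells. These 3 places, the widest of Mecom in the control, were thus wider in the cKO library, by 1.05, 1.07 and 1.18 times.

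Unmatched peaks at Mecom stood in the weaker 50% of either list. The 7 control-only peaks were 300 to 880 bp wide and all lay inside the gene. The most significant lay at 30371031 to 30371733 (-log10 p 5.33), 30483393 to 30483784 (5.01) and 30138601 to 30138900 (4.50, tied with 30219158 to 30220037). A group of 3 neighbouring ones, from 30219158 to 30245024, formed a run over 25.9 kb, and runs of 3 were not counted over the whole list. The cKO-only peaks lay at 30379809 to 30380662, with 854 bp and a -log10 p of 4.52, and at 30504134 to 30505227, with 1094 bp and 4.08. Of the 27 pairs matched one to one, 14 were wider in cKO cells and 13 narrower, from 0.58 to 1.74 times. Of Mecom's control peaks 79.4% were matched (62.1 to 91.3%), against 61.8% of control peaks in the same strength classes. For Lhx1 and Osr2 the classes gave 69.9% and 88.4%, also below the 100% matched (63.1 to 100% and 47.8 to 100%). At Pax2 and Pax8 it was the reverse, with 65.4% (44.3 to 82.8%) and 68.8% (41.3 to 89.0%) matched against 73.3% and 75.1% in the classes. For every member but Mecom the interval held the class value.

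Taking the 5 genes as a group, unmatched control peaks were narrower in the median than matched ones and mostly weak. Their median width was 607 bp, against 1136 bp, and over the whole control list the values were 580 and 1009 bp. Of the 21, 20 stood in the weaker 50% of the list, where 46.7% of all control peaks were unmatched, against 4.98% in the stronger 50%. The exception was the Pax8 peak of -log10 p 6.74. In the list shortened to 61210 control peaks, 7 of the 21 were left. The plot of significance shows the order within each gene.

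**Figure D3:**
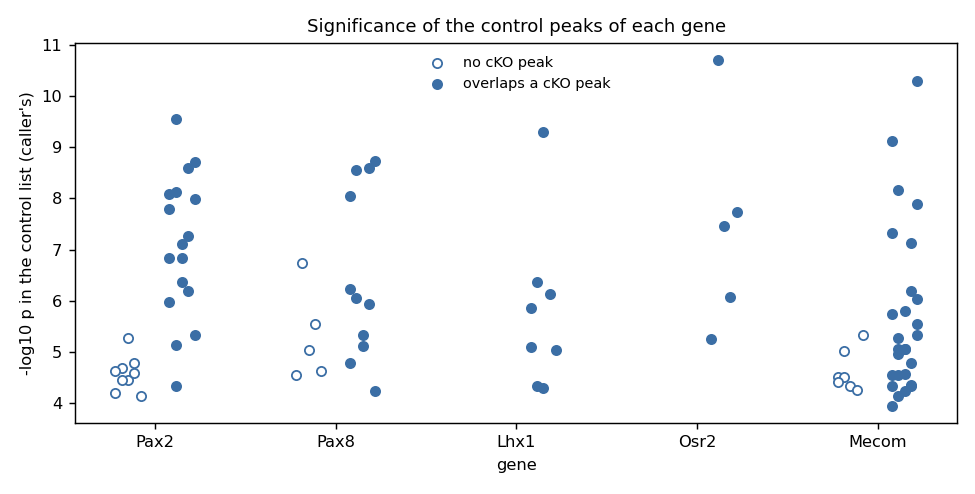
The caller's -log10 p of each control peak by gene, with open points for peaks without a cKO peak and filled points for the rest. All open points lie at 5.54 or lower except that of Pax8 at 6.74.

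Unmatched control peaks held 12.03% of the members' 124.0 kb in the control, and unmatched cKO peaks 2.71% of their 113.0 kb in the cKO library. The ratio of covered bases over the 5 genes was 0.91, with a mean peak width of 1549 bp in cKO cells and 1394 bp in control cells. When only the 61210 most significant control peaks were used, the ratio was 1.07, so its side of 1 depends on where the lists end. Only the control list was cut, so the ratio of any gene could only rise or stay. The same ratio over all genes was not computed for the shortened list. By gene it ran from 0.68 at Pax8 to 1.11 at Lhx1, and no member passed 1.5 fold under the assignment used here. Under other settings Pax8 did, at 0.64 (within 50 kb) and 0.60 (any annotated gene as competitor), as did Lhx1, at 0.58 (more significant 50% of each list).

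**Figure D4:**
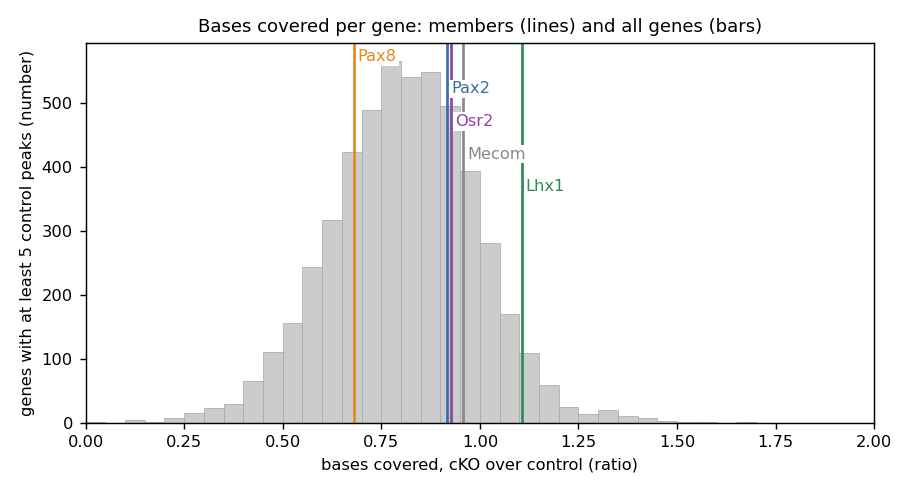
Covered bases in cKO over control for the 5 members (coloured lines) and for the 5136 genes with at least 5 control peaks (grey bars, number of genes). Pax8 at 0.68 lies below the median of 0.81, and Pax2, Osr2, Mecom and Lhx1 lie above it.

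Of 64 peaks of the 5 genes matched one to one, 34 (53.1%) were wider in cKO cells, and the median ratio was 1.01. Pax2 (12 of 17) and Lhx1 (3 of 5) had more wider than narrower pairs, Mecom had 14 of 27, and Pax8 (4 of 11) and Osr2 (1 of 4) had more narrower ones. Past 1.5 fold there were 3 wider pairs and 3 narrower ones, against 3.90% and 8.55% of all pairs. Summits lay within 50 bp of each other in 42 of the 64 pairs (65.6%), and in 77.1% of all pairs. Peaks of 4 kb or more made up 4 of the members' 73 cKO peaks and 5 of their 89 control peaks, against 1.40% of all cKO and 1.07% of all control peaks.

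**Figure D5:**
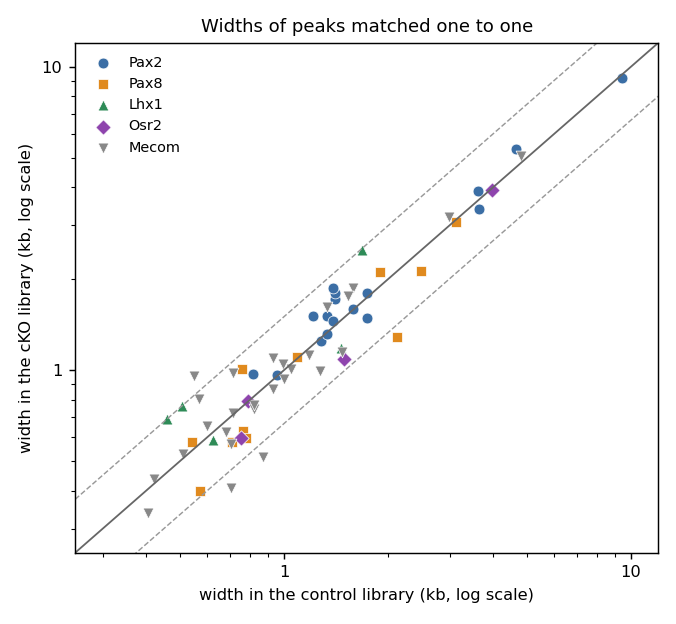
Width in the cKO library against width in the control for the 64 peaks of the members matched one to one (kb, log scales), with a solid line at equal width and dashed lines at 1.5 fold. Most pairs lie between the dashed lines, and 3 lie beyond on either side.

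Paralogues were set beside the members for comparison. Pax5, the third gene of the Pax2, Pax5 and Pax8 group and best known for B cells and the midbrain, had 10 of 12 cKO peaks and 10 of 14 control peaks matched. Lhx5, the paralogue of Lhx1 used in the nervous system, had 4 of 4 cKO peaks and 6 of 9 control peaks matched. Osr1, which marks the early kidney mesenchyme, had 6 of 6 cKO peaks and 5 of 5 control peaks matched, the same numbers as Osr2. Prdm16, the paralogue of Mecom, had 24 of 26 cKO peaks and 23 of 31 control peaks matched. The ratios of bases were 0.92 for Pax5, 0.84 for Lhx5, 1.05 for Osr1 and 0.94 for Prdm16. Both Osr genes thus had all peaks matched. These differences were not tested.

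A list of 30 other genes of the early nephron, with partners and targets of Pax2 and Pax8, had 212 of 221 cKO peaks matched (95.9%, 92.4 to 98.1%) and 206 of 288 control peaks (71.5%, 65.9 to 76.7%). The members' control share was 76.4% (66.2 to 84.8%), and over the whole list 25.9% of control peaks were unmatched. Both intervals count neighbouring peaks as independent, and the difference was not tested. Among its 25 genes with at least 5 control peaks the median ratio of bases was 0.90, against 0.81 over all such genes. Of the 25, 2 were past 1.5 fold towards fewer bases in cKO cells and none towards more, against 21.5% and 0.136% of all such genes. Every control peak was matched at 6 of the 25, against 13.3% of all such genes, whatever their number of peaks. Of those 25 genes the smallest shares belonged to Wt1, a factor of progenitors and podocytes, with 14 of 30 control peaks matched and a ratio of 0.43, to the Notch ligand gene Jag1, with 5 of 10 and 0.86, and to the cadherin gene Cdh4, with 19 of 37 and 0.44. At the other end the cyclin gene Ccnd1 (7 of 7, ratio 0.95), the cadherin gene Cdh6 of the renal vesicle (7 of 7, 0.83) and the growth factor gene Fgf8 (5 of 5, 1.25) had all control peaks matched.

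Genes of nearest pattern were sought by Euclidean distance over 6 values, the number of peaks, the number matched and the covered kb in each library, on a log2 scale with 1 added. Nearest to Pax2 were Ahdc1 (distance 0.45) and Bcor (0.51), and nearest to Pax8 were Jarid2 (0.20) and Ets2 (0.21). Nkx2-3 (0.23) and S1pr3 (0.24) lay nearest to Lhx1, Dll4 (0.19) and Hspa8 (0.23) to Osr2, and Nfia (0.13) and Lpp (0.22) to Mecom. Osr1 was the third nearest gene to Osr2 (0.26). Nfia, for example, had 27 of 29 cKO peaks and 27 of 36 control peaks matched, with 32.8 kb in cKO cells and 36.7 kb in control cells. The likeness rests on 1 library per genotype.

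Markers of cell types that also use these genes were open in both libraries. A peak at a gene end was found in both for 4 of 5 nephron markers (not Cdh6), 4 of 5 markers of collecting duct and ureteric bud (not Foxi1) and all 5 endothelial markers. Over the whole list 25.9% of control peaks were unmatched, and the median ratio of bases was 0.81 over genes with at least 5 control peaks. Control peaks of the collecting duct list were matched in 71.4% of cases, with 35.4 kb in cKO cells and 39.7 kb in control cells. Those of the endothelial list were matched in 73.2%, with 35.2 kb in cKO cells and 46.7 kb in control cells. Among podocyte markers 47.8% of control peaks were matched, with 40.4 kb in cKO cells and 118.5 kb in control cells. Control peaks of the progenitor list were matched in 91.4%, with 44.6 kb in cKO cells and 43.0 kb in control cells. Those of the stromal list were matched in 89.8%, with 78.2 kb in cKO cells and 74.0 kb in control cells. The nephron list had 76.8% matched, with 69.5 kb in cKO cells and 77.2 kb in control cells, and the immune list 63.6%, with 14.97 kb in cKO cells and 18.6 kb in control cells. The matched shares of the nephron, collecting duct and endothelial lists lay close to that of the whole control list. Progenitor and stromal markers had a gene-end peak in both libraries throughout, 4 of 4 and 5 of 5, and immune markers in 1 of 4 in the cKO library and 2 of 4 in the control. The part that the mix of cells has in the members' values was not tested.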

How the data were processed

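ATAC-seq peaks of Wnt4-lineage cells were analysed, 1 library of Brg1 cKO and 1 of control kidneys at E18.5. Per the submitters' processing notes, the authors worked with Genrich, SAMtools and Trim Galore in mm10 coordinates. Nothing used here states the aligner, the settings, duplicate handling or any shift of read ends. The deposited file of each library is a list of peaks in narrowPeak layout. Its deposited -log10 p-value and q-value come from the peak caller, with a lowest -log10 q of 1.35 in the cKO and 1.42 in the control list. The deposited signal per peak is at least 200 in both lists and not scaled between libraries, and the deposited score is capped at 1000. Neither was compared. Other deposited columns are positions and summits.

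Genes came from RefSeq (GRCm38.p6), and all named genes were found in its table. Coordinates are 1-based. A peak counted as matched when it overlapped a peak of the other list by at least 1 bp, and as lying at a gene end when within 1000 bp of it. Peaks were put into 10 strength classes by p within their list. The overlap step was tested on the control list after peaks were removed and ends shifted at random. Assignment was checked by direct search on a random sample of control peaks. Python 3.11.15, numpy 2.4.6, pandas 2.3.3, SciPy 1.17.1 and matplotlib 3.10.9 were used.

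Members, lists and tests were chosen with earlier results of these data known. Besides the members and 4 paralogues, the rule named the 2 genes nearest in pattern to each member, the 3 lowest and 3 highest of the list of 30, and per member the gene-end peaks, the 3 widest control peaks, the 3 most significant control-only peaks and every cKO-only peak. Osr1 as a near gene, the runs of peaks and other single peaks were chosen after their values were seen. Other settings tried were overlap of 50% of both peaks, lists of equal length, the more significant 50% of each list, assignment within 50 kb, any annotated gene as competitor, the nearest end only, and joining of peaks closer than 500 bp.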

Additional observations from a re-analysis of the deposited data

How the results depend on the processing

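With the control list shortened to the length of the cKO list, 79.5% of the members' cKO peaks and 88.7% of their control peaks were matched, in place of 95.9% and 76.4%, and 83.3% of the control peaks of the other early nephron genes in place of 71.5%. Fewer control peaks by construction lower the first of these shares. Dropping the weakest control peaks, where the fewest were matched, favours a rise in the other shares. The ratios of bases could only rise or stay. That list's share was 65.3% when 50% of both peaks had to overlap. The more significant 50% of each list held 32 cKO and 40 control peaks of the members, in place of 73 and 89, by its construction. Among values for the members, the list and the paralogues under other settings, 46 stayed within the interval of the share as reported or within 1.5 times the reported value and 6 did not. Among values of single genes, 103 did and 22 did not. With any annotated gene as competitor, Pax2 had 8 cKO and 13 control peaks, Osr2 2 and 2, and Lhx1 5 and 3. The unknown depth limits all counts of weak peaks, and peaks missing from a list are not shown to be closed. No paired analysis was possible because each genotype had 1 library.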

Other observations

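Mecom held the same long stretch without a peak in both libraries, 96.6 kb from 30247546 to 30344171 in the cKO library and from 30247527 to 30344148 in the control. The longest such stretches inside Pax8 were likewise close, 24.2 kb in the cKO library and 23.2 kb in the control, whereas inside Pax2 they differed, as given above.

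Long noncoding RNA genes lie at several of the members' peaks. In all, 9 of them had a member's peak within 1000 bp of an end, 7 in both libraries and 2 in the cKO library alone. Those seen in the cKO library alone, Gm26644 near Pax2 and Mecomos inside Mecom, were reached by cKO peaks that overlapped a control peak, so they differ by where a peak ends and not by its presence.

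Of the peaks of 4 kb or more, Pax2 had 2 in each library, Lhx1 and Mecom 1 in each, and Osr2 1 in the control. Pax8 had none.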
